A study of Homo sapiens with 18 samples.

Results

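HAP1 is a near-haploid human cell line obtained from KBM-7, a chronic myeloid leukaemia line. The comparison described here set 3 libraries of a HAP1 line with SARS2 deleted and a transgene for SARS2 carrying a FLAG tag (labelled ∆SARS2+SARS2-1xFLAG), labelled as 3 days without doxycycline, against 3 libraries of unmodified parental HAP1 without doxycycline. These 6 libraries were chosen by their labels from the 18 of the series, and all genes were compared. The line with the deletion is called the deleted line below, and its libraries are called the day 3 libraries. Cells were cultured in IMDM with 15 ng/mL doxycycline until the drug was removed, per the labels' protocols, and the labels do not say how long the parental libraries had been without it. A further 2 groups of 3 libraries, the deleted line with doxycycline and the parental line with doxycycline, gave a line difference that shares no library with the main one. The labels do not say whether the deleted line is 1 clone, what the deletion removed or which promoter drives the transgene. Deletion, transgene, line history and days without the drug therefore cannot be told apart in the main comparison.

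SARS2 is the seryl-tRNA synthetase of mitochondria. It joins serine to the serine transfer RNAs that the organelle uses to translate its own messenger RNAs, which encode core subunits of the respiratory chain. Loss of mitochondrial translation in human cells is known to engage the integrated stress response, in which the transcription factor ATF4 turns on genes for amino acid synthesis, amino acid uptake and stress signalling.

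The 6 libraries held 81473076 to 93373304 counts, of 59251 genes in the table, and 21615 genes passed the filter on low counts. Levels are CPM, read counts relative to the library size scaled by TMM, a normalization that matches the bulk of genes between libraries. Fold changes are log2 values of the deleted line over the parental line, given with a standard error (SE). Genes said to rise or fall by a value are higher or lower in the deleted line by that value. Genes with an adjusted p under 0.05 in edgeR's quasi-likelihood test are named as called. The SE was worked back from that test, as the size of the log2 fold change over the square root of the test's F statistic. No count fell on any of the 37 mitochondrially encoded genes, so the RNAs that SARS2 serves were not measured. A chi-square per gene between replicates was 4.97 to 7.91 for the day 3 pairs. The parental library without doxycycline numbered 3 stood apart from its replicates, with 69.5 and 86.6 against replicates 1 and 2, and 21.1 between those. Counts of called genes are therefore also given without that library. The labels do not tie replicates to separate cultures, so p-values measure only the spread among these samples, and that spread may be technical.

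SARS2 RNA was lower in the deleted line but was not lost. Its counts (chromosome 19, 38915266 to 38930763, minus strand, GRCh38) came to 30.5, 31.9 and 32.4 CPM in the day 3 libraries, against 36.6, 40.4 and 42.6 CPM in the parental line without doxycycline. The groups did not overlap, and the log2 fold change was −0.33 ± 0.10 (SE; adjusted p = 0.0073). An exact two-sided permutation test of the 6 values gave p = 0.1, the smallest that 3 against 3 allows. With doxycycline SARS2 stood at 24.2 ± 0.923 CPM in the deleted line and 44.3 ± 1.67 CPM in the parental line (SD, n = 3 each), a log2 fold change of −0.87 (adjusted p = 3.5e-06). The line difference was thus smaller without the drug than with it, by 0.54 on the log2 scale (adjusted p = 0.004), although the labels state that expression was depleted in the day 3 group. The counts cannot separate what remains of the deleted locus from the transgene, so directions below rest on the libraries' labels.

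The next gene on the chromosome, MRPS12, encodes a protein of the small mitochondrial ribosomal subunit and starts on the opposite strand, 180 bases from the start of SARS2. The stretch between the starts is shown because both genes are transcribed away from it and both differed between the lines. It lies at chr19:38930764-38930943, is printed 5′ to 3′ on the SARS2 (minus) strand from RefSeq's promoter table for GRCh38.p14, and holds no transcribed base of either gene. Capitals mark the letters of the CCAAT box, a common promoter motif, searched as CCAAT on both strands, so that ATTGG is the same box on the other strand.
SARS2-MRPS12: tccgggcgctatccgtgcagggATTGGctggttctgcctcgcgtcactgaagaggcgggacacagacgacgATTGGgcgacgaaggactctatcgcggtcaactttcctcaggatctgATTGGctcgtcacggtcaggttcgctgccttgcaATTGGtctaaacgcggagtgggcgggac
The stretch held 4 boxes, and 0.41% of the 35116 promoters in that table held at least 4 in the 180 bases before their start.

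MRPS12 went the other way from SARS2. It had 48.8, 51.1 and 48.5 CPM in the day 3 libraries, against 29.5, 34.3 and 21.9 CPM in the parental line without doxycycline (0.79 ± 0.14 SE, adjusted p = 0.00016). With doxycycline it was lower in the deleted line, at 43.3 ± 5.02 against 63.5 ± 0.369 CPM in the parental line (−0.55, adjusted p = 0.01). The 2 line differences differed by 1.35 (adjusted p = 4.5e-05). NFKBIB, an inhibitor of NF-kB, behaved alike, with 60.1 ± 2.99 CPM at day 3 and 39.5 ± 10.4 CPM in the parental line without the drug (0.61, adjusted p = 0.0011) but a log2 fold change of −0.72 with the drug (adjusted p = 0.00094). The parental values of both genes without the drug were lowest in replicate 3, and without it the log2 fold changes were 0.63 for MRPS12 and 0.41 for NFKBIB, both still called. SIRT2, which removes acetyl groups from proteins, was lower by a like amount in both conditions (−0.38 and −0.36). RINL fell by 0.56 without the drug (adjusted p = 0.0028). CCER2 (−0.58, adjusted p = 0.076) and FBXO17 (−1.35, adjusted p = 0.11) did not pass the test. CCER2 was called lower without parental replicate 3 (−0.72, adjusted p = 0.044). It was also called lower with a trend with gene length and span removed (−0.73, adjusted p = 0.028). The labels do not give the strand setting used in counting, so reads of overlapping or divergent neighbours such as SARS2 and MRPS12 may be shared.

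**Figure D1:**
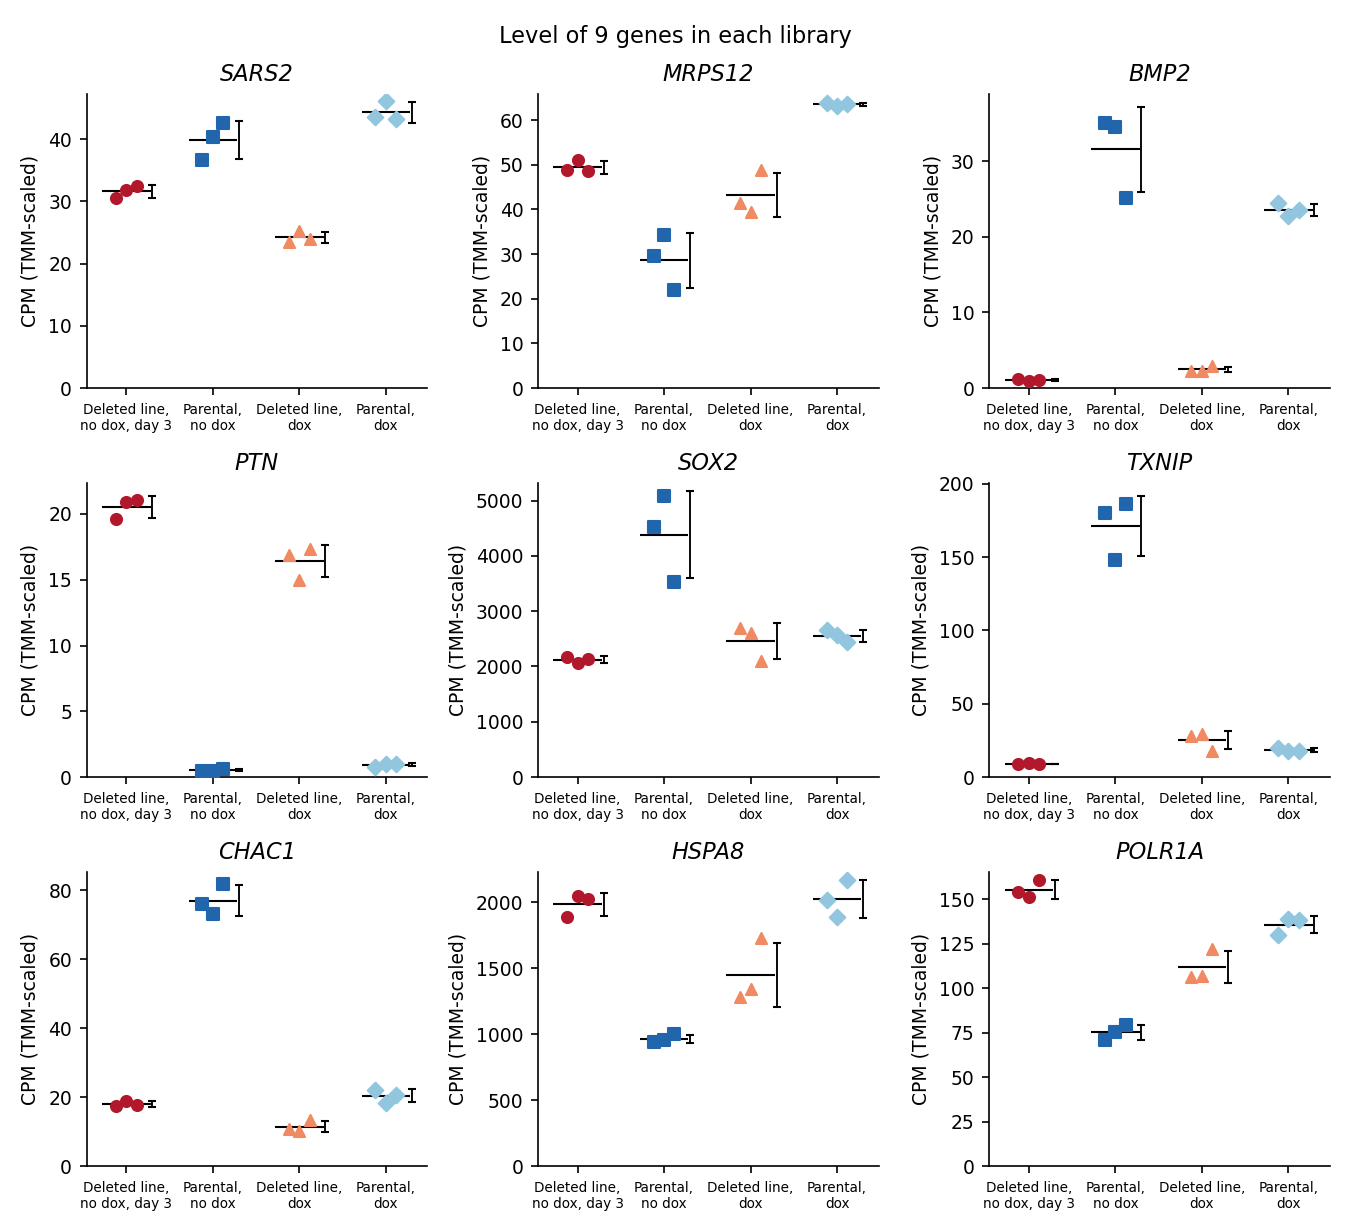
Level of 9 genes in CPM (linear axis from 0) in the 3 libraries of each of 4 groups; points are libraries, horizontal lines are means and bars are SD (n = 3). SARS2 was lower in both deleted-line groups, BMP2 and PTN separated the lines in both conditions, and SOX2, TXNIP, CHAC1, HSPA8 and POLR1A set the parental line without doxycycline apart from the other 3 groups.

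Differences between the lines without doxycycline reached a large share of expressed genes. Of the 21615 genes tested, 10553 were called (48.8%), 5018 higher (23.2%) and 5535 lower (25.6%) in the deleted line at day 3. At least a 2-fold difference was seen for 3031 of them (14%), 1255 higher and 1776 lower, and the median over all genes was −0.01. Without parental replicate 3 the count was 9921. Among the 10527 genes with a mean of at least 10 CPM, 59.6% were called. The groups did not overlap for 12845 genes (59.4%). With doxycycline the same lines differed in 4171 genes (19.3%), 2015 higher (9.32%) and 2156 lower (9.97%), and 953 of these (4.41%) differed at least 2-fold. The line difference itself differed between the drug conditions for 8530 genes (39.5%), 4012 upward (18.6%) and 4518 downward (20.9%), and 2983 by at least 2-fold (13.8%). Counts of called list members below are to be read beside the shares over all genes for the same comparison.

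Which libraries set the difference was read from the 12 libraries of both conditions. For 5818 of the 10553 called genes (55.1%), the 3 parental libraries without doxycycline lay outside the range of all 9 others. For 3151 (29.9%) the 3 day 3 libraries lay outside the range of all others. For 2123 (20.1%) both deleted-line groups lay apart from both parental groups. Over all tested genes these 3 patterns held for 29.3%, 16% and 10.9%. A call in the main comparison itself favours genes in which 1 of its 2 groups stands apart. The deleted line with doxycycline lay apart from all others for 3.77% of called genes (5.67% of tested genes). The parental line with doxycycline did so for 10.1% (11.3% of tested genes). A gene can be counted in more than 1 of these patterns. In a principal component analysis of the 12 libraries, the first component held 38.5% of the variance and placed the day 3 libraries at 56.0 to 58.2, the parental libraries without doxycycline at −86.1 to −69.2, the deleted line with doxycycline at 26.9 to 43.5 and the parental line with it at −14.4 to −8.79.

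Of the 10553 genes called without the drug, 2747 were also called with it, which is 26% of the longer list and 65.9% of the shorter. The direction was the same for 1409 of these and opposite for 1338. Of the 3031 genes that differed at least 2-fold without the drug, 547 (18%) did so with it as well, and for 1916 (63.2%) the line difference itself differed between the conditions. Among the 547, 451 (82.4%) had the same direction, 107 higher and 344 lower. Among the other 2200 genes called in both conditions, 958 had the same direction and 1242 the opposite one. Of 410 genes with a fitted fold of at least 8 without the drug, 142 (34.6%) reached it with the drug too, 140 of these in the same direction, 5 higher and 135 lower.

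**Figure D2:**
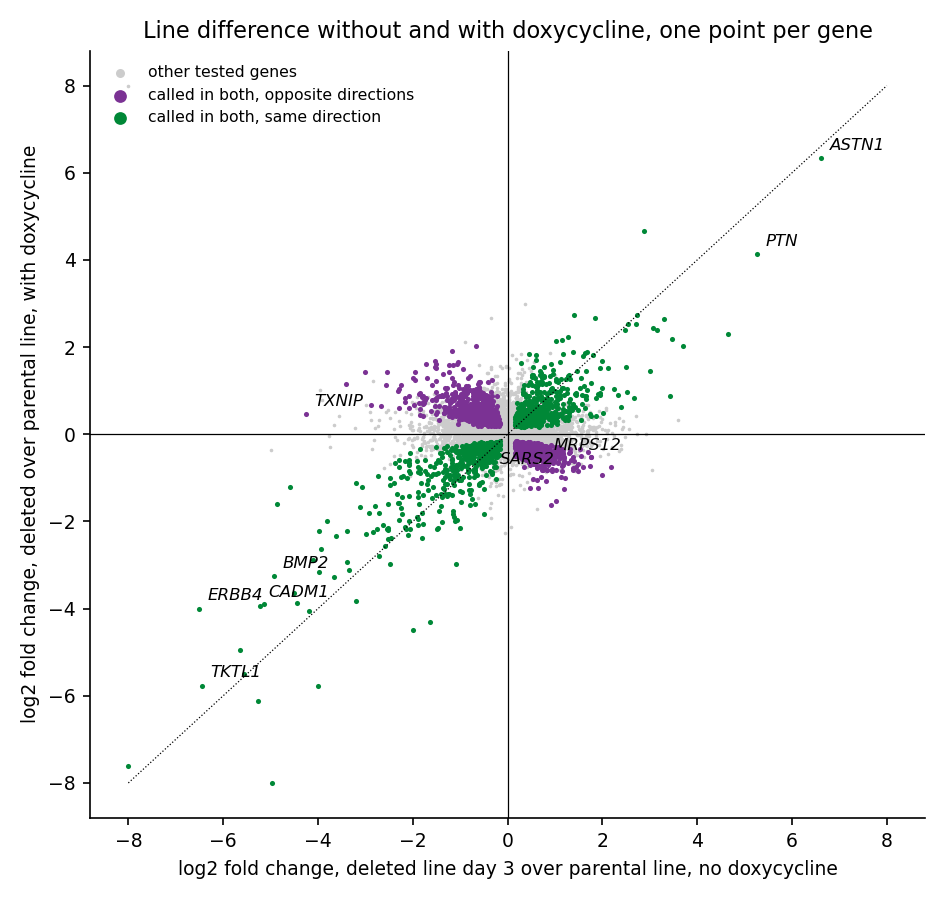
Line difference without doxycycline at day 3 (x axis) and with doxycycline (y axis), both as log2 fold change of the deleted line over the parental line, for genes of at least 1 CPM; the dotted line marks equal values, and 3 genes beyond 8 are drawn at 8. Green points (called in both, same direction) run along the dotted line to large values, and purple points (called in both, opposite directions) stay nearer to the origin.

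The genes most above the parental line in the deleted line included adhesion, growth factor and contractile genes. ASTN1, a neuronal adhesion protein that guides migrating neurons, had 21.3, 21.5 and 22.9 CPM in the day 3 libraries, against 0.304, 0.208 and 0.151 CPM in the parental line without doxycycline (6.62 ± 0.16 SE, adjusted p = 1.1e-15), and 6.33 with doxycycline. PTN, the secreted growth factor pleiotrophin, had 19.6, 20.9 and 21.1 CPM, against 0.489, 0.481 and 0.636 CPM (5.26 ± 0.13). ACTG2, a smooth muscle actin, had 9.51, 11.6 and 10.8 CPM, against 0.727, 0.744 and 0.981 CPM (3.70 ± 0.18). CSRP1, a LIM protein of the actin cytoskeleton, rose by 3.30, SCN2B, a sodium channel subunit, by 3.06, and CADPS, a factor for dense-core vesicle release, by 3.47. GASK1A rose by 3.15 and the pseudogene PPIAP46, whose reads cannot be separated from its parent gene with certainty, by 4.66. SAMD15 and IGSF10 rose by 3.59 and 3.43. With doxycycline SAMD15 gave 0.32 (adjusted p = 0.31), and the difference of 3.27 was itself called. The other 9 of these 10 genes were called higher with doxycycline too.

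The genes most below the parental line were low in the deleted line in both drug conditions. AMBN, the enamel matrix protein ameloblastin, had 0 counts in the 3 day 3 libraries, against 6.07, 5.42 and 6.52 CPM in the parental line, which makes it at least 177-fold lower against a floor of 3 counts per library. ERBB4, a receptor tyrosine kinase of the EGF receptor family, had 0.0243, 0.0215 and 0.0221 CPM, against 2.1, 1.78 and 2.69 CPM (−6.51 ± 0.43 SE, adjusted p = 1.3e-09). TKTL1, a transketolase-like gene, gave −6.45, and PXDN, the matrix enzyme peroxidasin, −5.64. The adhesion molecules PCDH17, CADM1 and EDIL3 gave −5.57, −5.22 and −5.13. EDIL3 fell to 0.523, 0.226 and 0.309 CPM at day 3, against 13.7, 11.2 and 11.9 CPM in the parental line. S100A6, a calcium-binding protein, gave −4.96 without the drug and was at 0 counts in the deleted line with doxycycline, at least 45.7-fold below the parental line there. DEPP1 differed from the rest in the parental line, which was itself low with doxycycline. It had 0.292, 0.258 and 0.188 CPM at day 3 and 7.78, 7.08 and 8.77 CPM in the parental line without the drug (−5.00), and a log2 fold change of −0.35 with doxycycline (adjusted p = 0.46).

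A pair of secreted BMP signals were among the genes that separated the lines. BMP2 had 1.2, 0.872 and 1.03 CPM in the day 3 libraries, against 35, 34.5 and 25.1 CPM in the parental line without doxycycline, 30.5-fold lower (−4.93 ± 0.16 SE, adjusted p = 8.3e-14). BMP7 had 0.414, 0.474 and 0.475 CPM, against 6.58, 8.31 and 6.73 CPM (−3.98 ± 0.17). With doxycycline both were lower as well, by 9.58-fold and 4.7-fold. BMP4, named after its values were seen, gave −0.08 (adjusted p = 0.52). Of the 27 tested genes of the TGF-beta and BMP pathway, 6 were higher and 8 lower, shares near the 23.2% and 25.6% over all genes, so the counts set the pathway apart in neither direction. CCN1, a matricellular protein, rose by 1.99, LTBP1, which stores latent TGF-beta in the matrix, fell by 1.90, and ID3, a BMP-responsive inhibitor of transcription factors, rose by 0.73.

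Lists of matrix and surface genes held calls in both directions. Over all genes 23.2% were higher and 25.6% lower without doxycycline, and 9.32% and 9.97% with it. Of 45 tested collagens and other matrix proteins, 17 were higher and 12 lower without doxycycline, the second near the share over all genes. With doxycycline 18 were higher and 2 lower. LAMA2, a laminin chain, had 61.5, 56.3 and 58.2 CPM at day 3, against 9.88, 10.4 and 11 CPM in the parental line (2.49 ± 0.12 SE). COL9A1 rose by 1.80, THBS2 by 1.54 and VCAN by 1.24, whereas NID2 fell by 1.17. Of 19 integrins 3 were higher and 8 lower, with ITGB4 at −1.03, ITGA2B at −1.02 and ITGA9 at 0.45. Of 15 classical cadherins and clustered protocadherins 3 were higher and 8 lower, and CDH20 and CDH12 were at or below 0.0646 CPM in all day 3 libraries. Among genes named after their values were seen, MMP2, a matrix metalloprotease, rose by 1.85 without and 2.66 with doxycycline. PDGFRA, a receptor for platelet-derived growth factor, rose by 1.59 and 1.80, and ALPL, an alkaline phosphatase, by 1.66 and 1.46.

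Metallothioneins, small proteins that bind zinc and copper, were higher in the deleted line. Of 6 tested genes of the list, 5 were higher and 0 lower without doxycycline, with a median of 1.16, and 4 were higher and 0 lower with it. The 5 were metallothioneins. The sixth was the zinc exporter SLC30A1, named after its values were seen, at −0.27 (adjusted p = 0.085), and it was called lower without parental replicate 3 (−0.37, adjusted p = 0.023) and with a trend with gene length and span removed (−0.34, adjusted p = 0.043). MT1E had 55.9, 61.3 and 57.1 CPM at day 3, against 17.3, 14.1 and 13.3 CPM in the parental line (1.96 ± 0.14 SE). MT2A rose by 1.29 and MT1X by 0.53. These genes are close copies of each other, so reads may be split among them.

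A fitted fold of at least 8 below the parental line in both conditions was found for 135 genes (0.625% of tested genes). Fitted folds over groups at 0 counts are no measure of size: with each deleted-line mean held at or above a floor of 3 counts per library, 64 of the 135 (0.296% of tested genes) were at least 8-fold lower in both conditions. In the parental line without doxycycline 33 of them had at least 1 CPM, and 121 were under 0.1 CPM in the day 3 libraries. Chromosome 19 held 28 of the 135, 2.02% of its 1388 tested genes, and 14 of the 64. Of these, 21 were numbered ZNF genes, which encode zinc finger proteins, many of them KRAB repressors of transposable elements. In the stretch of the proximal short arm that runs from ZNF253 to ZNF254, 15 of 32 tested ZNF genes were lower by this fitted fold and 10 against the floor. Elsewhere on the chromosome 6 of 200 were lower by the fitted fold and 2 against the floor. The limits of the stretch were chosen after the values were seen, so these counts are a description. Over the whole list of 232 ZNF genes of chromosome 19, 64 were higher and 81 lower, with a median of −0.06. These genes are close copies of each other, and reads may be split among them.

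Within that stretch, genes at or near 0 in the deleted line lay among genes it expressed. ZNF90, ZNF486, ZNF43, ZNF257 and ZNF729 had 0 counts in all 3 day 3 libraries. ZNF43 had 0.825, 0.766 and 0.841 CPM in the parental line without doxycycline, at least 23.9-fold above the floor, and ZNF257 had 0.793, 0.711 and 0.69 CPM, at least 21.5-fold above it. ZNF208 had 0.11, 0.0323 and 0.0883 CPM at day 3, against 2.68, 2.61 and 3.53 CPM in the parental line (−5.26 ± 0.35 SE). In all, 8 of the 15 genes had 0 counts at day 3, and 7 of the 15 had 0 counts in both deleted-line groups. Between these genes lay ZNF431, with 23.9, 22.6 and 23.8 CPM at day 3 and 24.6, 22.4 and 26 CPM in the parental line (−0.05, adjusted p = 0.6). ZNF100 gave 0.09 (adjusted p = 0.47), and ZNF91 stood at 44.4, 40.1 and 40.6 CPM, against 67.2, 61.5 and 75.3 CPM (−0.71). The 15 genes had parental means of 0.0906 to 2.94 CPM, mostly below those of the other 17, which had means of 0.257 to 68 CPM. The lowest of the 17, ZNF98, was also near 0 at day 3, with a mean of 0.0342 CPM against 0.257 CPM in the parental line (−2.87, adjusted p = 0.01).

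**Figure D3:**
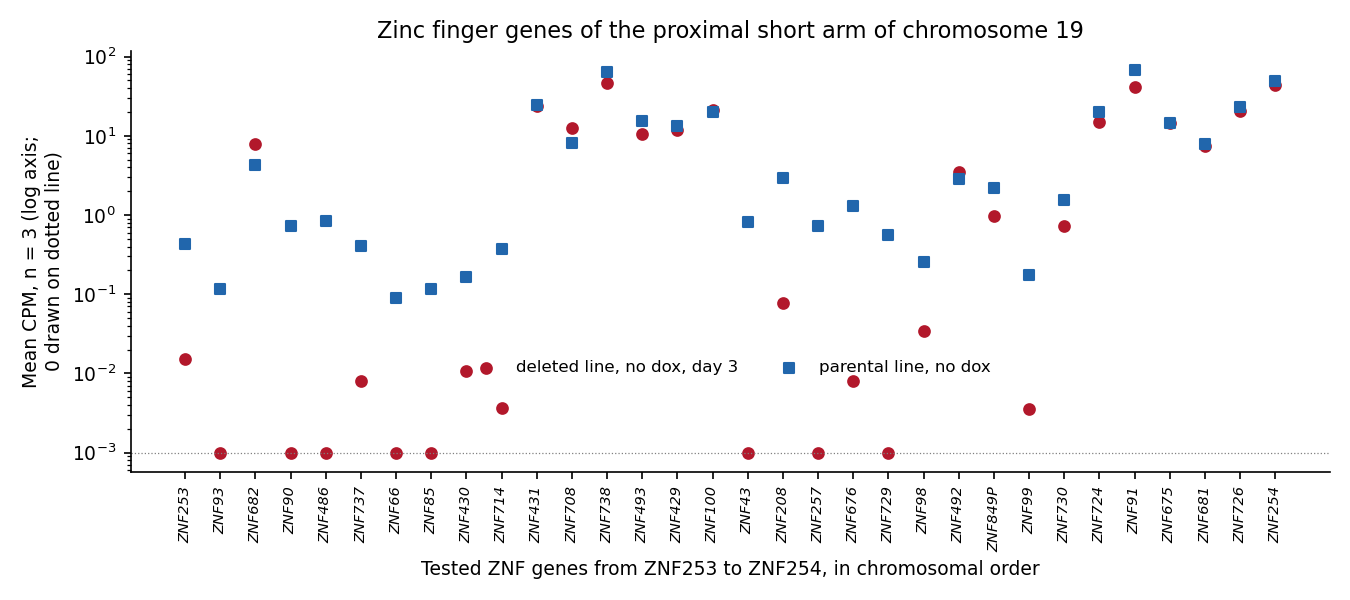
Mean CPM (log axis, n = 3 per group) of the 32 tested ZNF genes from ZNF253 to ZNF254 on chromosome 19, in chromosomal order, with means of 0 drawn on the dotted line. Red circles (deleted line at day 3) lie at or near 0 for 15 genes and for ZNF98, which lie among genes with higher levels in both lines, while blue squares (parental line without doxycycline) stay above 0.09 CPM throughout.

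Other genes at or near 0 in the deleted line in both conditions were named after their values were seen. MEIOB, a factor for meiotic recombination, had 0, 0 and 0.0221 CPM at day 3, against 1.35, 1.5 and 1.38 CPM in the parental line without doxycycline. DNMT3L, a cofactor of DNA methyltransferases, had 0 counts in both deleted-line groups, against 0.261, 0.186 and 0.302 CPM in the parental line without the drug. LIN28A, an RNA-binding repressor of let-7, gave −3.23, and NLRP2 had 0, 0 and 0.0662 CPM, against 0.673, 1.16 and 0.895 CPM. The neighbours CCDC122 and LACC1 on chromosome 13 gave −3.97 and −3.20. TMEFF2 fell by 3.35 and FOXP2, a forkhead transcription factor, by 3.56. The 5 genes with a fitted fold of at least 8 above the parental line in both conditions were ASTN1, PTN, GDNF, DIO2 and KCNA5, and 3 of them, ASTN1, PTN and KCNA5, reached 8-fold against the floor in both. DIO2 had 0 counts in the parental line with doxycycline, which supports at least 3.71-fold there. GDNF, DIO2 and KCNA5 stayed at or below 0.718 CPM in every day 3 library.

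Chromosome 3 stood above all other chromosomes in the deleted line. The median log2 fold change of its 852 genes with at least 1 CPM was 0.28 without doxycycline and 0.22 with it. The medians of the other 22 chromosomes lay between −0.13 and 0.13 without the drug and between −0.04 and 0.03 with it. On chromosome 3, 454 genes (53.3%) were called higher and 111 (13%) lower without the drug, and 336 higher and 31 lower with it. The shift was spread along the chromosome: all 17 bins of 10 Mb with at least 20 genes had a positive median in both conditions, 0.06 to 0.40 without the drug and 0.13 to 0.29 with it. The bins between 70 and 100 Mb held fewer genes and were not used. With doxycycline 15 of the 17 exceeded each of the 239 bins of other chromosomes, whose medians ran from −0.20 to 0.16. Without the drug 3 of the 17 did, since the other bins ran from −0.34 to 0.34.

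Shares of all counts gave the same picture. Genes of chromosome 3 took 6.62%, 6.58% and 6.58% of counts in the day 3 libraries, and 5.75% to 5.76% in the parental line without doxycycline. They took 6.11% to 6.39% in the deleted line with doxycycline and 5.36% to 5.41% in the parental line with it. Comparisons within a line gave smaller medians for the chromosome, 0.09 for day 3 against doxycycline in the deleted line and 0.04 for the parental line without against with the drug. The 0.09 was still above every other chromosome in that comparison, which ran from −0.06 to 0.03. The 0.04 lay within the range of the others, −0.11 to 0.11. Without parental replicate 3 the median of the main comparison was 0.29. Named genes of chromosome 3 include CTNNB1, the Wnt effector beta-catenin, which had 499, 529 and 510 CPM at day 3, against 312, 306 and 322 CPM in the parental line (0.71 ± 0.05 SE), and 0.35 with doxycycline. RHOA, a small GTPase named after its values were seen, gave 0.11 (adjusted p = 0.16). SOX2, also on this chromosome, went down. CADPS, IGSF10 and GASK1A, which were among the genes most above the parental line, lie on it too. So do MCM2, RRP9, EIF4G1, TRMT10C, GFM1, LARS2, GATA2 and TCTA, which are named in other paragraphs. How much of their differences goes with the shift of the whole chromosome was not tested.

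**Figure D4:**
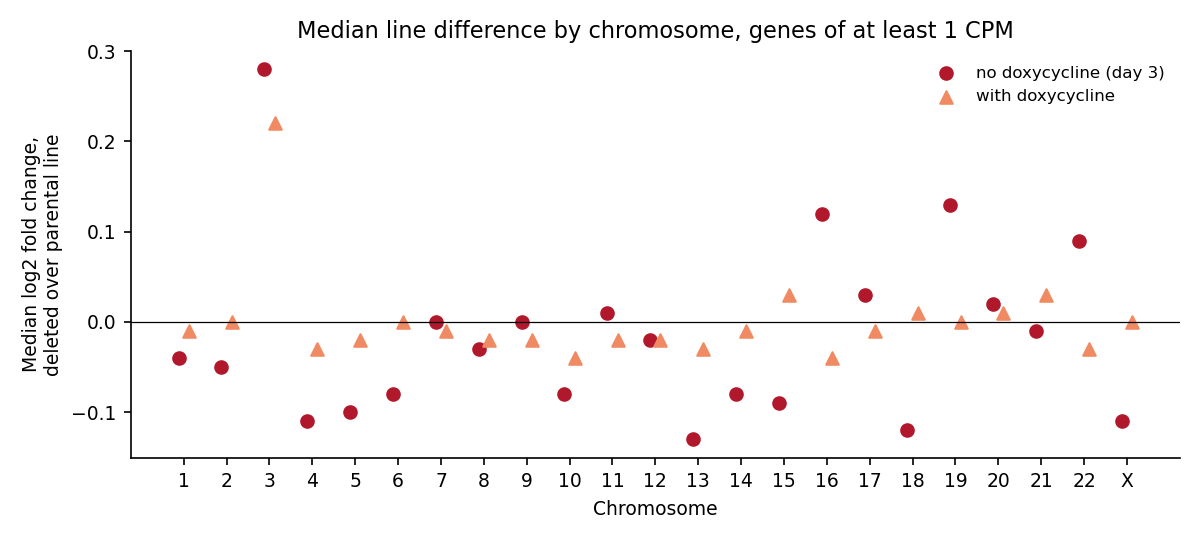
Median log2 fold change of the deleted line over the parental line for genes of at least 1 CPM on each chromosome, without doxycycline at day 3 (circles) and with doxycycline (triangles). Chromosome 3 reaches 0.28 and 0.22, and the other chromosomes stay between −0.13 and 0.13.

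The genes whose line difference depended most on the drug condition were led by TXNIP, an arrestin-like protein that restrains glucose uptake and binds thioredoxin. TXNIP had 8.67, 9.26 and 8.88 CPM in the day 3 libraries, against 180, 148 and 186 CPM in the parental line without doxycycline, 19.2-fold lower (−4.26 ± 0.18 SE, adjusted p = 4.9e-12). With doxycycline it had 28.1, 29.6 and 17.9 CPM in the deleted line and 19.8, 17.9 and 17.5 CPM in the parental line. The parental line without the drug was the high group, several times above all others. The difference of the 2 line differences was −4.72 (adjusted p = 5.4e-10).

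TXNIP is a target of MondoA, a transcription factor that binds paired E-boxes when glucose is abundant. The pair is known as the carbohydrate response element and is printed here because the promoter carries it and the gene had the smallest p for a drug-dependent line difference. The 250 bases before its start lie at chr1:145996580-145996829 on the minus strand, from RefSeq's promoter table for GRCh38.p14. Capitals mark the match to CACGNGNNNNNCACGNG, searched on both strands.
TXNIP: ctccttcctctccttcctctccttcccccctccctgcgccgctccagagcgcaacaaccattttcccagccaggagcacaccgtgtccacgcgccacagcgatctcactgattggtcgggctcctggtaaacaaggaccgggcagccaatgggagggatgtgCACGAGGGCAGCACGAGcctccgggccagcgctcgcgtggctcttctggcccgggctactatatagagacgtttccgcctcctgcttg
The letters occurred in 16 of 35116 promoters (0.0456%) in that window. They were not in the same window of ARRDC4, ARRDC3 or HK2.

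Other MondoA-linked genes followed TXNIP in part. ARRDC4, a paralog that also limits glucose uptake, had 7.13, 5.64 and 5.93 CPM at day 3, against 34.5, 31 and 31 CPM in the parental line without doxycycline (−2.37 ± 0.11 SE), and −0.07 with the drug (adjusted p = 0.7). KLF10, a zinc finger repressor, had 8.59, 9.65 and 9.59 CPM, against 29.9, 25.4 and 29.9 CPM (−1.61 ± 0.09), and 0.54 with the drug. ARRDC3, a further arrestin-domain protein, went up in both conditions (1.15 and 1.06). Of the 8 genes in the list for MondoA and glucose sensing, 2 were higher and 4 lower without the drug. MLX, the dimerization partner of MondoA, gave 0.27, a call that was lost when the trend with gene length was removed (0.15, adjusted p = 0.17).

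In the rest of the 10 genes with the smallest p for the drug-dependent line difference, the line difference with the drug was near 0 or opposite in direction. KCNQ1, a potassium channel subunit, had 2.13, 1.86 and 1.82 CPM at day 3, against 10.1, 10.1 and 8.68 CPM in the parental line without the drug (−2.31 ± 0.14 SE), and was higher in the deleted line with the drug (1.00). YPEL1 gave −1.28 without and 1.06 with the drug, REPS2, a partner of endocytic adaptors, −1.23 and 1.58, and LOC112268113 −3.41 and 1.15. ZP3, a zona pellucida protein, gave −2.29 and 0.61. TCTA and GDAP1 went the other way. GDAP1, a mitochondrial outer membrane protein linked to peripheral neuropathy, had 32.9, 33.5 and 31.2 CPM at day 3, against 7.49, 6.53 and 7.14 CPM in the parental line without the drug (2.21 ± 0.11), and gave 0.04 with the drug (adjusted p = 0.82). TCTA rose by 1.65 without the drug.

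The genes with the most counts that differed at least 2-fold were SOX2, POU5F1, HSPA8, HNRNPU and EIF4G1. SOX2 and POU5F1 encode pluripotency factors that were used to make HAP1 from its parent line, and counts of integrated copies, if present, cannot be separated from those of the genes. SOX2 had 2170, 2063 and 2142 CPM at day 3, against 4526, 5090 and 3531 CPM in the parental line without doxycycline (−1.04 ± 0.11 SE), and −0.05 with the drug (adjusted p = 0.79). POU5F1 had 1765, 1582 and 1674 CPM, against 3823, 4087 and 4196 CPM (−1.27 ± 0.09). HNRNPU, a nuclear matrix RNA-binding protein, rose by 1.17, and EIF4G1, the scaffold of cap-dependent translation initiation, by 1.12. In all of these genes the parental line without the drug was the outlying group.

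ATF4 targets were lower, not higher, in the deleted line at day 3. Of 46 tested targets 0 were higher and 40 lower, with a median of −0.67, beside 25.6% lower and a median of −0.01 over all genes. Without parental replicate 3 the count was 42 lower. With doxycycline 2 were higher and 27 lower, with a median of −0.39, and the drug-dependent difference was called upward for 2 and downward for 17. Summed over the list, levels ran from 5016 to 5215 CPM at day 3 and from 4327 to 4634 CPM in the deleted line with doxycycline. In the parental line they ran from 7187 to 7567 CPM without the drug and from 5683 to 5942 CPM with it. In both lines the sums were thus higher without the drug. ATF4 RNA had 473, 476 and 484 CPM, against 602, 614 and 685 CPM (−0.41 ± 0.06 SE, adjusted p = 1.7e-05), and −0.49 with the drug. ATF5, a related factor that responds to mitochondrial stress, had 27.9, 31.5 and 29.2 CPM, against 71.9, 61.3 and 71.4 CPM (−1.21 ± 0.12). DDIT3, which encodes the stress factor CHOP, had 21.5, 18.6 and 20.2 CPM, against 55.6, 44.1 and 60.7 CPM (−1.41 ± 0.12). With the drug DDIT3 gave −0.29 (adjusted p = 0.11).

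Single targets showed how the 4 groups lay. CHAC1, which degrades glutathione, had 17.5, 18.9 and 17.7 CPM at day 3, against 76, 73.3 and 81.9 CPM in the parental line without doxycycline (−2.09 ± 0.13 SE). With the drug it had 10.9, 10.2 and 13.3 CPM in the deleted line and 22.1, 18.4 and 20.7 CPM in the parental line. The lines were thus ordered alike in both conditions, with a wider gap without the drug. DDIT4, an inhibitor of mTORC1, had 30.1, 31.1 and 29.8 CPM, against 150, 152 and 158 CPM (−2.34 ± 0.15). CTH, which makes cysteine, fell by 1.22, ADM2, a secreted peptide, by 1.38 and CEBPG, a partner of ATF4, by 0.73. TRIB3 and ASNS, named after their values were seen, fell by 0.74 and 1.43. GDF15, a secreted marker of mitochondrial stress, had 0.596, 0.355 and 0.552 CPM, against 1.07, 1.01 and 0.755 CPM, and its call (−0.92, adjusted p = 0.035) was lost without each of 4 libraries, with adjusted p from 0.058 to 0.14.

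Cytosolic tRNA synthetases had more members called lower than higher, and mitochondrial ones were called about as often as all genes. Of 20 genes of serine, glycine and one-carbon metabolism, 5 were higher and 8 lower, beside 23.2% and 25.6% over all genes. Among them the serine synthesis enzymes PHGDH and PSAT1 fell by 0.61 and 0.60 and the mitochondrial folate enzyme MTHFD2 by 0.73, whereas thymidylate synthase TYMS rose by 0.43 and MTHFD1 by 0.34. Of 21 cytosolic tRNA synthetases 5 were higher and 11 lower, with CARS1 at −0.90, AARS1 at −0.67, the cytosolic serine enzyme SARS1 at −0.57 and GARS1 at −0.48. FARSA and VARS1 rose by 0.75 and 0.48. Of 23 mitochondrial tRNA synthetases 7 were higher and 5 lower, near the shares over all genes, with AARS2 at 0.91, LARS2 at 0.65 and CARS2 at 0.56. With doxycycline 0 of the 23 were higher and 6 lower.

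Nuclear genes of mitochondrial gene expression had more members called higher than lower without doxycycline, and none called higher with it. Over all genes 23.2% were higher and 25.6% lower without the drug, and 9.32% and 9.97% with it. Of 84 mitochondrial ribosomal protein genes, 35 were higher and 16 lower, with a median of 0.14. With doxycycline 0 were higher and 16 lower, with a median of −0.15, and the difference between conditions was called upward for 38 and downward for 8. MRPL1 had 38.5, 48.7 and 43.5 CPM at day 3, against 17.2, 15.7 and 17.1 CPM in the parental line without the drug (1.38 ± 0.15 SE). MRPL12, MRPL20 and MRPL57 rose by 0.93, 0.87 and 0.87. Removing the trend with gene length and span, which is described below, left 29 higher and 15 lower. Of 36 factors for mitochondrial DNA, RNA and translation 14 were higher and 11 lower, among them the mitochondrial RNase P subunit TRMT10C at 0.87, the helicase TWNK at 0.62, the elongation factor GFM1 at 0.58 and the rescue factor MTRFR at −0.41. Of 22 mitochondrial chaperones and proteases 10 were higher and 4 lower, with the prohibitins PHB2 and PHB1 at 0.62 and 0.44 and the unfoldase CLPX at −0.33. Without parental replicate 3, 7 of the 22 were higher.

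Respiratory chain genes of the nucleus were seldom called higher. Of 38 complex I subunits 6 were higher and 6 lower, which is below the share over all genes in both directions, with NDUFS4 at −0.81, NDUFS7 at −0.43 and NDUFA11 at 0.50. Of 41 subunits of complexes II to V 1 was higher and 11 lower, the second near the 25.6% over all genes, and with the length and span trend removed 0 were higher and 17 lower. Among them were UQCRC2 at −0.55, SDHC at −0.48, COX7A2L at −0.49 and SDHA at −0.41. With doxycycline 5 and 1 complex I subunits, and 0 and 3 subunits of the other complexes, were higher and lower.

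Genes of ribosome production and of cytosolic protein folding were higher in the deleted line without doxycycline. Of 33 ribosome biogenesis genes 26 were higher and 2 lower, with a median of 0.57, whereas with the drug 0 were higher and 17 lower. POLR1A, the large subunit of RNA polymerase I, had 154, 151 and 161 CPM at day 3, against 71, 75.2 and 79.4 CPM in the parental line without the drug (1.05 ± 0.11 SE). RRP9 rose by 1.25, the pyrimidine enzyme CAD by 0.90, RRP1 by 0.79 and NOP56 by 0.72. Of 17 heat shock proteins 14 were higher and 0 lower, with a median of 0.43, whereas with the drug 0 were higher and 5 lower. HSPA8, the constitutive HSP70, had 1886, 2047 and 2022 CPM, against 940, 952 and 999 CPM (1.04 ± 0.22). HSPH1, its nucleotide exchange factor, rose by 1.15, DNAJB1 by 0.96, CHORDC1 by 0.60 and HSP90AA1 by 0.53. HSPB1 had 297, 299 and 300 CPM, against 165, 182 and 75.1 CPM (1.09 ± 0.19), with parental replicate 3 the lowest. The difference between conditions was called upward for 29 biogenesis genes and 14 heat shock genes, and downward for 1 and 0.

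Cytosolic ribosomal proteins did not follow the biogenesis genes. Of 83 tested genes 7 were higher and 32 lower, with a median of −0.14, and with the drug 10 were higher and 2 lower. RPL13A had 1993, 1998 and 2020 CPM at day 3, against 2736, 2763 and 2652 CPM in the parental line (−0.44 ± 0.06 SE). RPL11 and RPS15A fell by 0.38 and 0.40. RPS10 and RPL17, which rose by 1.77 and 1.14, lie in loci with readthrough transcripts and their counts are uncertain. With the length and span trend removed 3 were higher and 43 lower.

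Cholesterol synthesis, fatty acid synthesis and hypoxia lists had more members called lower than higher, and glycolysis was split. Of 24 cholesterol synthesis genes 3 were higher and 14 lower, with a median of −0.31, and with the drug 1 was higher and 2 lower. SC5D fell by 0.97, FDPS by 0.58 and the cholesterol carrier STARD4 by 0.85, and TM7SF2 rose by 1.11. Of 13 fatty acid synthesis genes 3 were higher and 7 lower, with ACSS2, which makes acetyl-CoA from acetate, at 38, 37 and 37.9 CPM, against 84.6, 89.5 and 81.6 CPM (−1.18 ± 0.11 SE). SCD fell by 0.52 and ELOVL5 by 0.44. Of 18 hypoxia targets 1 was higher and 12 lower, with a median of −0.68, whereas with the drug 6 were higher and 2 lower. P4HA1 and P4HA2, which hydroxylate collagen, fell by 1.20 and 1.21. PDK1, a kinase that inhibits pyruvate dehydrogenase, fell by 0.95 and BNIP3, a mitophagy receptor, by 0.88. Of 21 glycolysis genes 6 were higher and 8 lower, and with the drug 0 were higher and 14 lower. ALDOC had 7.79, 7.57 and 8.5 CPM, against 68.3, 70 and 82.4 CPM (−3.21 ± 0.24), and 0.15 with the drug (adjusted p = 0.71). SLC2A3, a glucose transporter, fell by 1.83, ENO2 by 0.95, and PGAM1 rose by 0.50.

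Without doxycycline most listed replication genes were higher in the deleted line, and mitosis genes had more members called lower than higher. With the drug neither list kept that pattern. Of 38 DNA replication genes 25 were higher and 2 lower, with a median of 0.27, whereas with the drug 2 were higher and 2 lower. MCM2, a subunit of the replicative helicase, had 633, 659 and 661 CPM at day 3, against 338, 384 and 318 CPM in the parental line without the drug (0.91 ± 0.06 SE). MCM5 rose by 0.85, POLA2 and GINS4 by 0.69 each and RRM2 by 0.54. Of 30 mitosis genes 2 were higher and 13 lower, with PRC1 and KIF2C at −0.65 each, CDK1 at −0.51 and AURKA at −0.41, and with the drug 5 were higher and 0 lower. Of 42 tested replication-dependent histone genes 25 were higher and 2 lower, with a median of 1.32 (19 higher and 3 lower with the length and span trend removed), but most were low: H2AC17 had 2.37, 2.07 and 3.5 CPM, against 0.793, 0.788 and 0.83 CPM. H1-10, which is in the list although its expression is not tied to replication, had 374, 387 and 365 CPM, against 206, 235 and 74.1 CPM (1.13 ± 0.23). Its parental value was lowest in replicate 3, which adds to the size of that fold change. Histone genes are close copies, and reads may be split among them. In bulk RNA, fewer cells in a phase and less RNA per cell cannot be told apart.

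The stress lists given next held calls in both directions, to be read beside 23.2% higher and 25.6% lower over all genes. Of 20 endoplasmic reticulum stress genes 6 were higher and 5 lower, near those shares, with CRELD2 at 0.79, DNAJB11 at 0.53 and HERPUD1 at −0.91. Of 23 NRF2 targets 13 were higher and 3 lower, with NQO1 at 46.7, 48.6 and 48 CPM, against 27, 27.6 and 29.2 CPM (0.77 ± 0.09 SE), and TXNRD1 at 0.37. With the drug 1 was higher and 6 lower. Of 21 p53 targets 8 were higher and 7 lower. TP53I3 had 17.1, 18.5 and 21.2 CPM, against 3.05, 3.14 and 2.32 CPM (2.74 ± 0.17), and BAX rose by 0.73, whereas CCNG1 fell by 1.03 and SESN1 by 0.59. Of 24 interferon response genes 5 were higher and 8 lower, with BST2 at 0.53 and IFITM1 at −1.95. Of 28 lysosome and autophagy genes 7 were higher and 14 lower. WIPI1, a phosphoinositide effector of autophagy, had 8.95, 8.58 and 8.51 CPM, against 29.4, 30.4 and 29.3 CPM (−1.78 ± 0.12), and GABARAPL1 fell by 1.20.

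**Figure D5:**
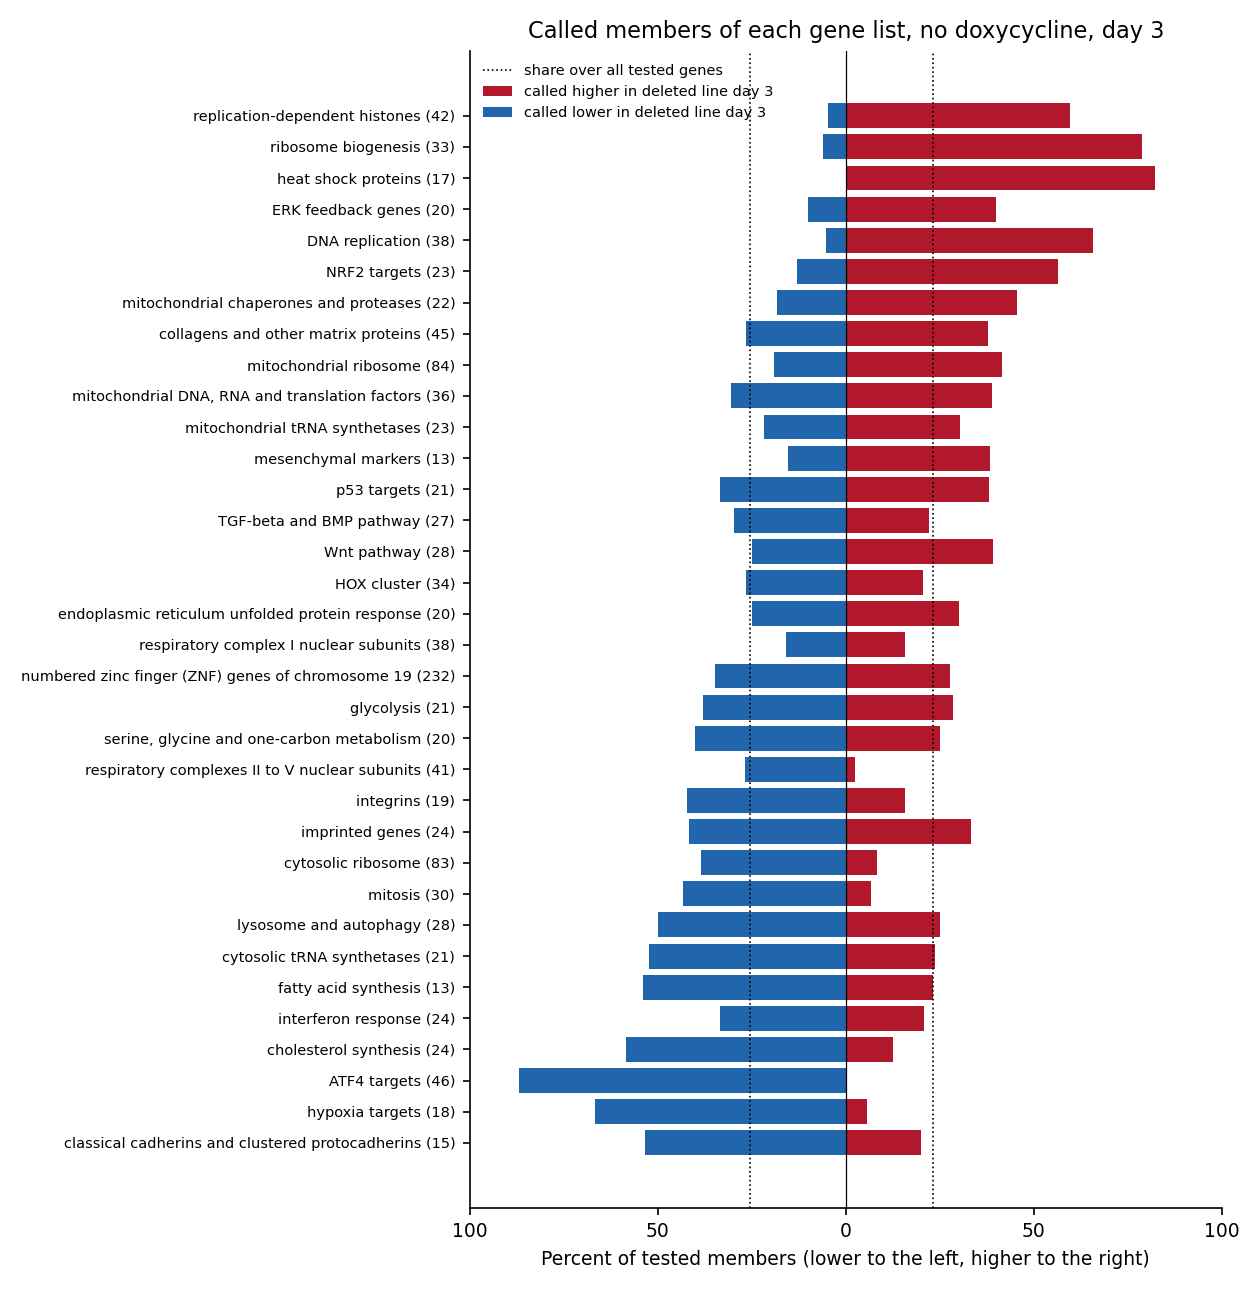
Percent of tested members of each list with at least 10 tested genes that were called higher (red, right) or lower (blue, left) in the deleted line at day 3 without doxycycline, ordered by the list's median, with the number tested in brackets. Dotted lines mark 23.2% higher and 25.6% lower over all tested genes. Heat shock, ribosome biogenesis and DNA replication extend furthest to the right, and ATF4 and hypoxia targets furthest to the left. Other lists, among them replication-dependent histones and NRF2 targets, also exceed 23.2% on the right.

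Developmental signalling and identity lists held large changes in single genes. Shares are to be read beside 23.2% higher and 25.6% lower over all genes. Of 28 Wnt pathway genes 11 were higher and 7 lower, with WNT3 at 0.86, FZD3 at −0.84, APCDD1 at −2.02 and SFRP1 at −0.50. Of 20 ERK feedback genes 8 were higher and 2 lower. EGR1 had 3.79, 4.21 and 5.76 CPM at day 3, against 0.912, 1.43 and 1.11 CPM in the parental line without the drug (1.99 ± 0.24 SE). The line difference of EGR1 with the drug was 1.69. DUSP6, a phosphatase of ERK, rose by 1.75 in both conditions, and ETV1 by 1.21 without the drug. Of 34 HOX genes 7 were higher and 9 lower, near the shares over all genes, with HOXC9 at 0.134, 0.194 and 0.0773 CPM, against 2.16, 2.61 and 1.77 CPM (SE 0.47 on the log2 scale), and −5.78 with the drug. Of 24 imprinted genes 8 were higher and 10 lower, with PEG10 at 0.60, GNAS at 0.35, DLK1 at −2.37 and MKRN3 at −2.24. Of 7 tested cancer-testis genes 1 was higher and 3 lower, with PRAME at −0.83 and TEX15 at 0.34. The calls for PIWIL2 and PAGE2B in that list were lost without single libraries.

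Markers of other cell types were checked in the same libraries. Of 15 haematopoietic markers 8 were tested, 4 higher and 2 lower. GATA1, HBG1 and HBG2 were at 0 in all 6 libraries and PTPRC at or below 0.0243 CPM, whereas GATA2, a blood and endothelial transcription factor, had 56.5, 54.2 and 58.4 CPM, against 28.8, 32.5 and 28 CPM (0.92 ± 0.07 SE). KIT and RUNX1 fell by 1.03 and 1.15. Summed over the list, levels ran from 84.7 to 87.6 CPM at day 3 and from 73.7 to 76.4 CPM in the parental line without doxycycline. Of 10 epithelial markers 7 were tested, 2 higher and 3 lower, with CDH1 at or below 0.0219 CPM and sums of 45.9 to 48.5 against 41.4 to 45.2 CPM. Of 16 mesenchymal markers 13 were tested, 5 higher and 2 lower, with VIM at 668, 697 and 673 CPM, against 433, 434 and 401 CPM (0.68 ± 0.08). TAGLN and ZEB1 had lower means at day 3, 1.06 against 2.8 CPM and 67.5 against 87.6 CPM. VIM made up most of the mesenchymal sums of 950 to 976 against 697 to 721 CPM. Of 10 neural markers 9 were tested, 4 higher and 4 lower. TUBB3, a neuronal tubulin, rose by 1.22 and SYT1 fell by 0.94, and SOX2 made up most of sums of 2232 to 2340 against 3637 to 5190 CPM. Of 8 endothelial markers only KDR was tested, at or below 0.391 CPM, and PECAM1 was at 0 in the day 3 libraries. Their part in the other results was not tested.

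The nuclear long noncoding RNA NEAT1 was called lower at day 3, and fold changes were related to gene span. NEAT1, the scaffold RNA of paraspeckles, had 4.53, 4.82 and 5.75 CPM at day 3, against 15, 12.6 and 16.2 CPM in the parental line without doxycycline (−1.54 ± 0.18 SE). With the drug its mean was 6.86 CPM in the deleted line and 3.94 CPM in the parental line (0.80). MALAT1 gave −0.30 (adjusted p = 0.068) without the drug and 0.62 with it. Without the drug it was called lower once the trend with gene length and span was removed (−0.36, adjusted p = 0.029). It was not called without parental replicate 3 (−0.24, adjusted p = 0.17). Genes spanning under 10 kb had a median of 0.12 (n = 3798), those of 10 to 100 kb −0.02 and those above 500 kb −0.10 (n = 195). Genes are not independent replicates. Across the 11790 with at least 5 CPM, Spearman's rho between span and log2 fold change was −0.20 without the drug and 0.13 with it. The part of this relation in the list counts was measured by removing the trend, and counts with it removed are given above for mitochondrial and cytosolic ribosomes, complexes II to V and histones. With it removed, HOX genes had 5 higher and 12 lower, and TGF-beta and BMP genes 9 higher and 6 lower.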

How the data were processed

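The authors deposited raw counts of reads per gene as whole numbers, per the file headers. Tools named in the submitters' processing notes, without their roles, are HISAT2, featureCounts of Subread, SAMtools, cutadapt 2.3 and DESeq2, with the build GRCh38. The sources used here do not name the annotation release. Libraries were 151-bp paired-end reads, per the labels' protocols. Tables were joined by gene name, 16 genes broken over lines were rejoined, and 6 libraries held in 2 tables were identical and used a single time.

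Counts of all 18 libraries (66850705 to 111123481 each) were fitted with edgeR 4.0.16 in R 4.3.3: filterByExpr by group, TMM, 6 group means, quasi-likelihood test, Benjamini-Hochberg adjustment over 21615 genes. The fit was tested on simulated data. The 3 contrasts were deleted over parental line without doxycycline at day 3, the same with doxycycline, and their difference. Genes named were SARS2, its neighbours within 50 kb, ATF4, ATF5, DDIT3, NEAT1 and MALAT1. Also named were the 10 most changed per direction among called genes with a mean of at least 1 CPM and no overlap between groups, and up to 5 called members per list by p, of which some are not reported here. The last were the 10 smallest p for the difference and the 5 called genes with the most counts that differed 2-fold. The members and the 42 lists were chosen with earlier results of these data known. Beside the lists described, one held SARS2 and nearby genes (10 tested, 3 higher, 5 lower).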

Additional observations from a re-analysis of the deposited data

Results flagged for a closer look

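The line difference without doxycycline at day 3 differed from the line difference with doxycycline for 8530 genes in edgeR's quasi-likelihood test of the difference itself. Of 242 tested genes named by the stated rule, 192 were among them. Of these, 158 were named only as members of a list and are not given one by one, and the other 34 follow. The values here are that difference, the line difference without the drug minus the one with it, on the log2 scale. Around SARS2 (0.54) they were 1.35 for MRPS12, 1.32 for NFKBIB and −1.56 for CCER2. Among stress and nuclear RNAs they were −1.13 for DDIT3, −2.34 for NEAT1 and −0.92 for MALAT1.

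Among the genes most above the parental line, the difference was 3.27 for SAMD15, 2.57 for IGSF10, 2.37 for PPIAP46, 1.67 for ACTG2, 1.28 for CADPS, 1.12 for PTN and 0.75 for GASK1A, so their gap between the lines was wider without the drug. Among those most below it, the difference was −4.64 for DEPP1, −2.51 for ERBB4, −1.29 for CADM1 and −1.24 for EDIL3. S100A6 gave 5.37, but it had 0 counts in the deleted line with doxycycline, so the size of that fitted value is no measure of the change.

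The 10 genes with the smallest p for this test gave −4.72 for TXNIP, −2.15 for KLF10, −3.31 for KCNQ1, −2.34 for YPEL1, −4.56 for LOC112268113, −2.30 for ARRDC4, 1.79 for TCTA, 2.16 for GDAP1, −2.90 for ZP3 and −2.81 for REPS2. The genes with the most counts gave −0.99 for SOX2, −0.99 for POU5F1, 1.52 for HSPA8, 1.31 for HNRNPU and 1.30 for EIF4G1.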

How the results depend on the processing

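The count of genes called without doxycycline (10553) stayed within 9032 to 10887 over all alternatives, 9032 to 10130 when a library was left out, and that for the difference of the line differences (8530) within 7378 to 9628, 7378 to 8504 when a library was left out. The count with doxycycline (4171) came to 7336 when only the 2 groups compared were fitted and ran from 2593 to 3846 when a library was left out (2593 and 2627 without deleted-line replicates 1 and 2, 2657 without parental replicate 3). The cause was not tested. SARS2 stayed called in the main comparison, from −0.28 to −0.39. Scaling by library size alone gave 45% of calls higher, against 47.6% with TMM.

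Of 4058 values of 272 named genes under alternatives, 4018 kept their direction and their side of the threshold, 22 lost the call, 18 gained one and 0 reversed. CLDN7, KDR, KRT8, MLX, PIWIL2, PAGE2B and GDF15 were those that lost it. Same-numbered replicates of the main comparison did not deviate together (correlations 0.00 to 0.04), and not every library correlated best with its own number. With doxycycline the correlations were 0.08, 0.14 and 0.15 and every library correlated best with its own number, a hint from the data and not the design. The replicate block changed the count to 10403, to 4021 with doxycycline and to 8365 for the difference. The block combined with removal of the length and span trend gave 10472. Leaving out a library sets 2 libraries against 3. At 0 counts, a level up to 3 counts per library would not have been detectable, and these limits cover counting error only.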
